A study of Homo sapiens with 34 samples.

Results

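The genes described here are the glucocorticoid receptor gene *NR3C1* and 7 genes that dexamethasone is known to induce, *FKBP5*, *TSC22D3*, *KLF9*, *SGK1*, *DUSP1*, *CEBPD*, and *ZBTB16*. Each was taken by its symbol from the gene names of the expression tables, which gave 8 of 28690 loci. The cells were U2OS, a human osteosarcoma line that stably carried a *Bmal1*:*luc* reporter, synchronized with a dexamethasone shock. They were kept in 5 mM 6AN or in DMSO as the control, and rRNA-depleted RNA was sequenced at 12 time points every 4 hr, labeled CT00 to CT44, with 1 library per time and condition (24 libraries). ChIP-seq for BMAL1, CLOCK, H3K9ac, and H3K4me3, with input DNA, was performed after 24 hr in each condition (10 libraries). All groups therefore shared the reporter and, for RNA, the dexamethasone shock, and no library without dexamethasone was analysed here. The labels do not say how many hours passed between the shock and CT00, so times below are the label hours. The hours 0 to 20 are called the first cycle and 24 to 44 the second.

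Dexamethasone is a synthetic glucocorticoid that enters the cell and binds the glucocorticoid receptor, which is held by the HSP90 chaperone machinery in the cytoplasm. The bound receptor moves to the nucleus and pairs on a palindromic DNA element, from which it raises the transcription of genes such as those described here. A short pulse of dexamethasone is widely used to set the circadian clocks of cultured cells to a common phase, because the clock gene *PER1* is itself such a target. 6AN (6-aminonicotinamide) is a nicotinamide analog that blocks the oxidative arm of the pentose phosphate pathway, a main source of NADPH.

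The receptor and its targets were expressed at different levels in the control cells. FPKM, the authors' fragment count scaled to gene length and library depth, averaged 35.0 for *CEBPD*, 26.3 for *FKBP5*, 20.9 for *DUSP1*, 18.3 for *KLF9*, 9.10 for *NR3C1*, 6.15 for *SGK1*, 6.06 for *TSC22D3*, and 0.398 for *ZBTB16*. Neighbors in this order overlapped in range over the 12 control libraries, except that *NR3C1* lay below every *KLF9* value and above every *SGK1* value, and *ZBTB16* below all others. In 6AN the order changed, with *DUSP1* first at a mean FPKM of 56.6 and *TSC22D3* (12.8) above *NR3C1* (11.7) and *SGK1* (9.88). Of the 8 genes, 7 passed the filter of a mean FPKM of at least 0.7 over the 24 libraries and entered the tests, and *ZBTB16*, at 0.619, did not. The tests covered 14678 loci.

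The osteosarcoma origin was checked on markers, of which 6 of 7 for osteoblasts and mesenchyme passed the filter described above. The summed FPKM of 7 osteoblast and mesenchyme markers ranged from 1228 to 1642 in control and from 818 to 1189 in 6AN, without overlap, and *SP7* was near 0 in both. Within that list, the mean FPKM of *COL1A1*, a bone collagen chain, was 128 in control and 33.9 in 6AN, and that of *SPARC*, a bone matrix protein, was 323 and 129. The mesenchymal filament gene *VIM* was at 917 and 747, while *RUNX2*, the osteoblast master regulator, was at 14.0 and 13.9. The locus of *BGLAP*, which encodes osteocalcin, was at 23.1 and 22.8. It is also named for *PMF1* and *PMF1-BGLAP*, so these values cannot be read as osteocalcin alone. The part of this marker shift in the results below was not tested. The summed FPKM of 4 markers of other cell types (*EPCAM*, *CDH1*, *PTPRC*, *PECAM1*) stayed between 1.10 and 2.24 over all 24 libraries. Relative depth, read from the lowest steps in FPKM, spanned 0.581 to 1.31 in control and 0.697 to 1.56 in 6AN. Each value is relative to the median of its own condition, so depth cannot be compared between the conditions. In bulk RNA, fewer cells of a kind and less RNA per cell cannot be told apart.

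RefSeq promoter windows, from 250 bases before to 50 bases after a start site on GRCh38.p14, were given for 6 of the 8 genes, 18 windows in all. They were searched on both strands for the receptor's palindrome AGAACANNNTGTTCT, for its single hexamer (AGAACA or TGTTCT), for the E-box CACGTG that BMAL1 and CLOCK read, and for the cAMP response element TGACGTCA. The palindrome contains the hexamer. None of the 18 windows held the palindrome, which stood in 0.00286% of 34943 windows of this length. The hexamer was found in 2 windows, against 14.8% of all windows. An E-box was found in 2 windows, against 7.23% of all, and the cAMP element in 1, against 1.84% of all. The 4 windows with a match are shown because no other window of the 18 held any of these motifs, with the matches in capitals. All lie on the minus strand and are written 5′ to 3′.
FKBP5, upstream start, chr6:35728534-35728833: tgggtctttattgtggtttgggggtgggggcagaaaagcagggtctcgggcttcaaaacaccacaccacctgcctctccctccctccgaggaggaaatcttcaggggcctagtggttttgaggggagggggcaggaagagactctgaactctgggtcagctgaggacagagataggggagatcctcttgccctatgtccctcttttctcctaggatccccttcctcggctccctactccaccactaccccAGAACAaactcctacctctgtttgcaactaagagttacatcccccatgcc
FKBP5, downstream start, chr6:35688866-35689165: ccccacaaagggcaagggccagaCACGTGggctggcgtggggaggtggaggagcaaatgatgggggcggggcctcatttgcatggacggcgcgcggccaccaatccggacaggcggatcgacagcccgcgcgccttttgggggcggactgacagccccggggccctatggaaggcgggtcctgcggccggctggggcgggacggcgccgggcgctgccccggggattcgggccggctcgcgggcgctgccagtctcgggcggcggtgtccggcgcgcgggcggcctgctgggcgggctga
SGK1, middle start, chr6:134177812-134178111: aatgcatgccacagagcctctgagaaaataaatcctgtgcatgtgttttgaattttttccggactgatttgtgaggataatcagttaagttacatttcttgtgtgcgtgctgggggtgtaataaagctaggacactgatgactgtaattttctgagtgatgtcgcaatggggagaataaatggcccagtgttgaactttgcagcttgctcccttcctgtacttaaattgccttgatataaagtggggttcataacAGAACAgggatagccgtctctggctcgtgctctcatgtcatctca
DUSP1, chr5:172771146-172771445: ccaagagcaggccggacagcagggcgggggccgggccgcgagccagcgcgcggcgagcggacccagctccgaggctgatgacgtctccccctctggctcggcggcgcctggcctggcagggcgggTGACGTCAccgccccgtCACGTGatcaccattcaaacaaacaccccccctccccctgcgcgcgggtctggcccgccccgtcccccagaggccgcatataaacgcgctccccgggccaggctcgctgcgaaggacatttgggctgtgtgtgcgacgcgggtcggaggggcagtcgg
The hexamer of *FKBP5* begins at its upstream start site and that of *SGK1* 5 bases after the start. The E-box of *FKBP5* lies 227 bases before its downstream start. In *DUSP1* the cAMP element lies 125 bases and the E-box 108 bases before the start. A match of letters is a description and not a bound site.

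*NR3C1*, which encodes the receptor itself, showed no detectable time trend in either condition and was higher in 6AN at each time. In control its FPKM ranged from 8.05 to 10.1 with a median of 9.23 (n = 12). In 6AN it ranged from 9.94 to 13.0 with a median of 11.7 (n = 12). The 6AN library stood above its control at all 12 times, although the lowest 6AN library (32 hr) lay just under the highest control library (0 hr). Its linear time trend was 0.01 ± 0.05 (SE) on the log2(FPKM + 1) scale per day in control and -0.01 ± 0.06 in 6AN, neither past the threshold (limma, adjusted p = 0.969 and 0.940).

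**Figure D1:**
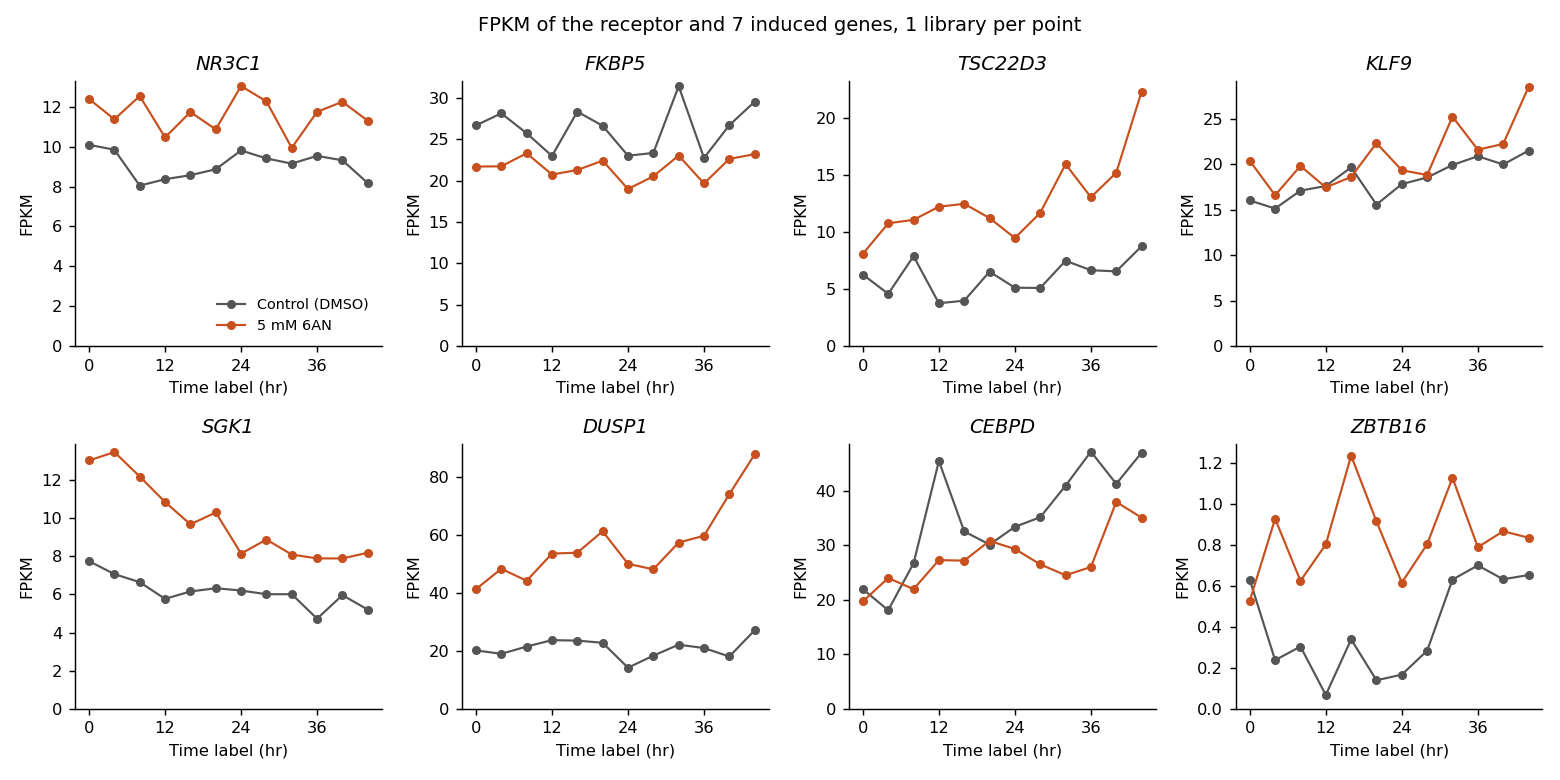
FPKM (vertical axis, from 0) against the time label in hr (horizontal axis) for the 8 genes, with control in gray and 6AN in orange, 1 library per point and no error bars. *SGK1* falls from 13.0 at 0 hr to 8.18 at 44 hr in 6AN, *DUSP1* climbs from 41.2 to 87.7, and *FKBP5* in 6AN lies below control at all 12 times.

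The levels in 6AN and control come from tables normalized separately, so they are set side by side without a test. Among the 7 genes that passed the filter, the mean FPKM in 6AN was at least 1.5 times that in control for 3, *DUSP1*, *TSC22D3*, and *SGK1*, where 7.21% of all tested loci were that much higher. None of the 7 was that much lower, against 11.8% of loci. 4 of the 7 were higher in 6AN at all 12 times, *NR3C1*, *TSC22D3*, *SGK1*, and *DUSP1*, against 12.6% of loci. *FKBP5* was lower at all 12 times, as were 19.8% of loci. Every 6AN library lay above every control library for *SGK1* and *DUSP1*, as for 5.66% of loci. The median log2 ratio of mean FPKM was 0.36 over the 7 genes and -0.05 over all tested loci.

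*FKBP5* encodes a co-chaperone that lowers the affinity of the receptor for its hormone, and so closes a feedback loop. Its FPKM ran from 22.7 to 31.4 in control, with a median of 26.6 (n = 12). In 6AN it ran from 19.0 to 23.3, with a median of 21.7 (n = 12). The ranges overlapped only at their ends, with 6AN the lower, and the ratio of mean FPKM was 0.822. The log2(FPKM + 1) difference, 6AN minus control, averaged -0.27 ± 0.10 (SD over 12 times). No time trend was detectable, at 0.02 ± 0.09 (SE) log2 per day in control and -0.00 ± 0.06 in 6AN (limma, adjusted p = 0.963 and 0.992). The receptor gene and its feedback gene thus lay on opposite sides of control at every time. The locus is also named for LOC285847, and since no strand setting is given in the sources used here, reads of overlapping genes cannot be told apart.

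*TSC22D3* encodes GILZ, a leucine zipper protein that carries part of the anti-inflammatory action of glucocorticoids. Its control FPKM ran from 3.76 to 8.77 with a median of 6.41 (n = 12). In 6AN it ran from 8.11 to 22.3 with a median of 11.97 (n = 12). The highest library in each condition was that of 44 hr, and the ranges overlapped through 1 control library (44 hr) that lay above 1 library of 6AN (0 hr). The ratio of mean FPKM was 2.11, and the log2(FPKM + 1) difference averaged 0.96 ± 0.36 (SD over 12 times). It rose with time in 6AN by 0.43 ± 0.12 (SE) log2 per day (limma, adjusted p = 0.0371). This call held in 9 of 19 alternatives, with adjusted p from 0.0108 to 0.114, and was lost without the 44 hr libraries (adjusted p = 0.0669) or the 0 hr libraries (0.114). In control the trend was 0.30 ± 0.17 and missed the threshold (adjusted p = 0.391).

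*KLF9*, a Krüppel-like factor that restrains growth, was close in level between the conditions. Its control FPKM ran from 15.1 to 21.5 with a median of 18.2 (n = 12). In 6AN it ran from 16.6 to 28.5 with a median of 20.1 (n = 12). The lowest library in each condition was that of 4 hr and the highest that of 44 hr, and the ranges overlapped from 16.6 to 21.5. The 6AN library was the higher at 10 of 12 times, and the ratio of mean FPKM was 1.14. *KLF9* rose in control by 0.20 ± 0.05 (SE) log2 per day (limma, adjusted p = 0.0492). In 6AN its trend of 0.25 ± 0.09 missed the threshold (adjusted p = 0.0724). The control call held in 5 of 19 alternatives, and without 1 time label its adjusted p ran from 0.0303 to 0.149.

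*SGK1*, a kinase that retains sodium channels and other transporters at the cell surface, fell with time in 6AN. Its FPKM in 6AN was 13.0 at 0 hr, 13.5 at 4 hr, 12.2 at 8 hr, 10.8 at 12 hr, 9.68 at 16 hr, and 10.3 at 20 hr. In the second cycle it was 8.14, 8.88, 8.09, 7.89, 7.89, and 8.18 from 24 to 44 hr. All 6 libraries of the second cycle thus lay below all 6 of the first, as for 4.86% of loci in 6AN. The fall was 0.41 on the log2(FPKM + 1) scale per day, with an SE of 0.06 (limma, adjusted p = 0.00198), and it passed the threshold in 19 of 19 alternatives.

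In control, *SGK1* ran from 4.72 at 36 hr to 7.74 at 0 hr, with a median of 6.08 (n = 12). Its trend of -0.19 ± 0.05 (SE) log2 per day missed the threshold (limma, adjusted p = 0.0603), and it passed in 2 of 19 alternatives. The slope in 6AN minus that in control was -0.22 ± 0.08 (adjusted p = 0.108), so a difference in decline was not detectable. It passed without the 44 hr libraries (adjusted p = 0.0488). The level in 6AN stood 1.75 times above control in the first cycle and 1.44 times in the second, and the ratio of mean FPKM over all times was 1.61. The log2(FPKM + 1) difference averaged 0.59 ± 0.17 (SD over 12 times).

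*DUSP1* encodes a phosphatase that switches off MAP kinases, a classical brake on inflammation. Its control FPKM ran from 14.2 at 24 hr to 27.1 at 44 hr with a median of 21.2 (n = 12). In 6AN it ran from 41.2 at 0 hr to 87.7 at 44 hr with a median of 53.7 (n = 12). The lowest 6AN library was well above the highest control library, and *DUSP1* had the largest ratio of mean FPKM of the 8 genes, 2.70. The log2(FPKM + 1) difference averaged 1.38 ± 0.30 (SD over 12 times). The ratio was 2.32 in the first cycle and 3.12 in the second.

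*DUSP1* rose with time in 6AN by 0.34 ± 0.08 (SE) log2 per day (limma, adjusted p = 0.0136), and in control its trend was -0.05 ± 0.12 (adjusted p = 0.894). The 6AN call held in 18 of 19 alternatives and was lost without the 0 hr libraries (adjusted p = 0.0556). The difference of the slopes was 0.39 ± 0.15 log2 per day and missed the threshold (adjusted p = 0.125). It passed in 2 of 20 alternatives, with the time label as a block (adjusted p = 0.0487) and without the 44 hr libraries (0.0370). At 0 hr, the earliest label, its FPKM was already 41.2 in 6AN against 20.1 in control.

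*CEBPD*, a C/EBP transcription factor of the acute phase response, was the gene in the set with the steepest rise in control. Its control FPKM ran from 18.1 at 4 hr to 47.2 at 36 hr with a median of 34.3 (n = 12). In 6AN it ran from 19.7 at 0 hr to 37.999 at 40 hr with a median of 26.9 (n = 12). The conditions overlapped over most of their range, with 6AN the lower at 10 of 12 times and a ratio of mean FPKM of 0.787. The rise was 0.49 ± 0.12 (SE) log2 per day in control (limma, adjusted p = 0.0469) and 0.25 ± 0.08 in 6AN (adjusted p = 0.0434). The control call held in 6 of 19 alternatives and the 6AN call in 8 of 19. The difference of the slopes was -0.24 ± 0.14 (adjusted p = 0.374).

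*ZBTB16*, which encodes the zinc finger factor PLZF and responds strongly to glucocorticoids in many tissues, was barely expressed. Its control FPKM ran from 0.0674 at 12 hr to 0.6999 at 36 hr with a median of 0.321 (n = 12). In 6AN it ran from 0.528 at 0 hr to 1.24 at 16 hr with a median of 0.819 (n = 12). The 6AN library was the higher at 11 of 12 times, all but 0 hr, and the ranges overlapped. The ratio of mean FPKM was 2.93 in the first cycle and 1.64 in the second. At such levels few reads stand behind a value, and no test was made.

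**Figure D2:**
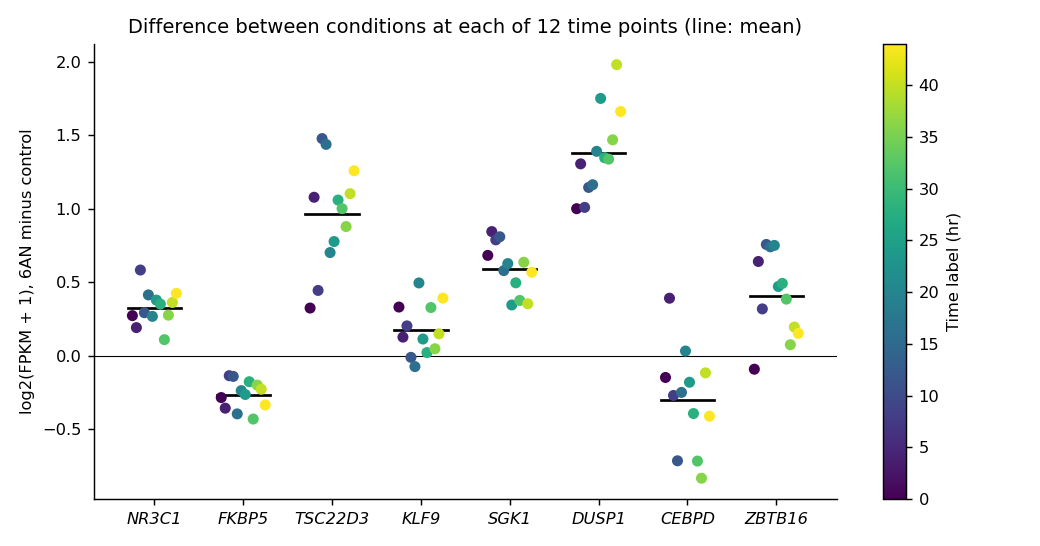
The difference in log2(FPKM + 1), 6AN minus control (vertical axis), for the 8 genes (horizontal axis), with 1 point per time point colored by its label in hr and a line at the mean of 12. All points of *NR3C1*, *TSC22D3*, *SGK1*, and *DUSP1* lie above 0 and all of *FKBP5* below it.

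Across the genes, 2 of 7 rose in control (*KLF9* and *CEBPD*), where 2.3% of loci rose, and none fell, where 2.56% fell. In 6AN, 3 of 7 rose (*TSC22D3*, *DUSP1*, and *CEBPD*), against 10.2% of loci, and *SGK1* fell, against 12.3%. The slope differed between conditions for none of the 7, where it was higher in 6AN for 2.89% of loci and lower for 4.24%, and a missed threshold does not show that the slopes were alike. The p-values treat the 12 libraries of a condition as independent around a trend and a 24 hr wave. Nothing in the sources used here says whether they came from separate cultures or whether the triplicate RNA extracts were pooled, so the spread may be technical.

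**Figure D3:**
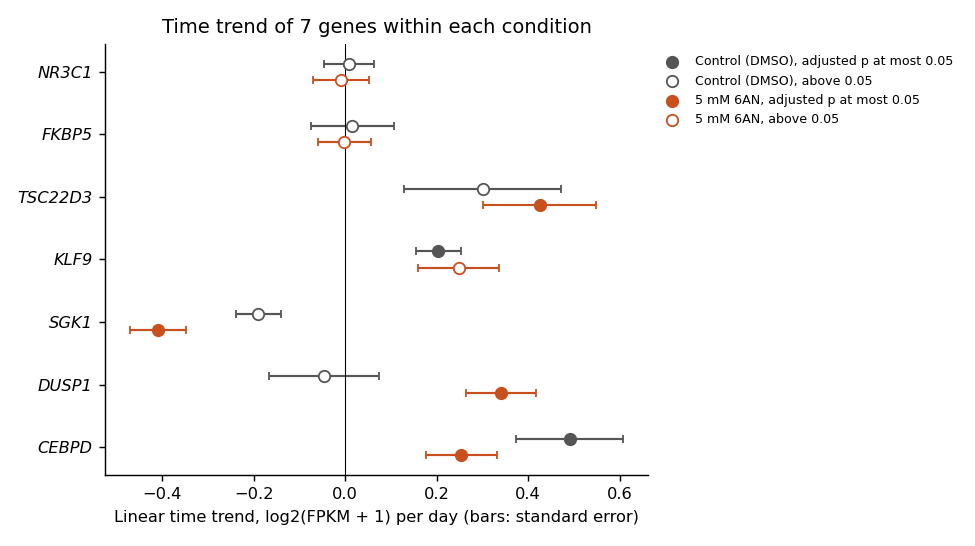
Linear time trend in log2(FPKM + 1) per day (horizontal axis, bars show the SE) for 7 genes (vertical axis), control in gray and 6AN in orange, with filled points at an adjusted p of at most 0.05. *SGK1* in 6AN is the only called trend below 0, at -0.41, and the *NR3C1* and *FKBP5* trends sit on 0.

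None of the 7 genes passed the test for a 24 hr rhythm, in which the cosine and sine terms were tested together. Rhythm calls were rare with this test, at 0.00681% of loci in control, where *PER3* was the 1 locus called (named after its value was seen), and 0% in 6AN. The test recovered few of the rhythms put into simulated data, so a missed call does not show that a rhythm was absent. With the RAIN algorithm and another threshold, the paper detected many circadian transcripts in each condition. In limma, 960 of 14678 loci in control and 1140 in 6AN had an unadjusted p under 0.05. The largest fitted waves were those of *CEBPD* and *DUSP1*. The peak-to-trough log2 amplitude of *CEBPD* was 0.47 in control (limma, adjusted p = 0.788) and 0.33 in 6AN (0.680). For *DUSP1* it was 0.33 in control (0.874) and 0.34 in 6AN (0.680). *FKBP5* had the smallest wave in control, 0.05 log2, and *SGK1* in 6AN, 0.02 log2.

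The deviations of the 7 genes from their condition means did not all run together over the 24 libraries. Each such correlation is a description, since all genes of a library share its depth and scaling. *SGK1* ran against *CEBPD* (Pearson's r = -0.68), *KLF9* (-0.64), and *DUSP1* (-0.54). *TSC22D3* ran with *DUSP1* (r = 0.61) and *KLF9* with *CEBPD* (0.60). *NR3C1* had r between -0.47, with *DUSP1*, and 0.14, with *SGK1*. Among all loci, the patterns most like *SGK1* were those of the *APOBEC3A*, *APOBEC3A_B*, and *APOBEC3B* locus (r = 0.92), *SMTN* (0.90), and *KIF18B* (0.89). For *KLF9* they were *SLFN5* (0.85), *MAFF* (0.82), and *CHMP1B* (0.82), and for *CEBPD* they were *SIAE* (0.84), *NGFRAP1* (0.84), and *CD63* (0.83). *DUSP1* was most like CTC-436P18.1 (0.83), *RFNG* (0.81), and *POLR3C* (0.80), and *TSC22D3* most like *ALDH3B1* (0.80), *SLC6A8* (0.78), and *ATF6B* (0.77). The likeness was weaker for *NR3C1*, at 0.76 with *SERPINI1*, 0.72 with *RBM12B*, and 0.69 with *KIAA0368*. For *FKBP5* it was 0.74 with *RBM5-AS1*, 0.72 with *USP36*, and 0.70 with *CDC42EP3*.

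Other parts of the pathway were read from lists. All 8 chaperones of the receptor passed the filter, with mean FPKM in control from 13.1 for *BAG1* to 1391 for *HSP90AB1*. *HSP90AB1*, *HSP90AA1*, and *PTGES3* (p23), which hold the receptor ready for hormone, had mean FPKM of 1391, 390, and 138 in control and 1087, 327, and 110 in 6AN. These 3 of the 8 were lower in 6AN at all 12 times, as were 19.8% of all tested loci. *BAG1*, a regulator of HSP70, was the 1 chaperone of 8 with a called trend, where 12.3% of loci fell in 6AN. It fell in 6AN by 0.23 on the log2 scale per day (SE 0.06, limma adjusted p = 0.0277), a call that held in 12 of 19 alternatives. In control its trend was -0.13 (limma, adjusted p = 0.396), and the slopes did not detectably differ (-0.10, adjusted p = 0.621). The list's median log2 ratio of 6AN to control was -0.17, against -0.05 over all loci.

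All 9 coregulators described passed the filter. 2 of them fell in 6AN, where 12.3% of all tested loci fell, and none in control, where 2.56% did. *SMARCA4*, the ATPase of the SWI/SNF remodeler, fell in 6AN by 0.32 on the log2 scale per day (SE 0.04, limma adjusted p = 8.63e-04), and its slope differed from control (-0.27 ± 0.06, adjusted p = 0.00560). The coactivator *NCOA3* fell in 6AN by 0.13 per day (limma, adjusted p = 0.0305). Its trend in control was close to that, at -0.11 (limma, adjusted p = 0.224), and the slopes did not detectably differ (-0.02, adjusted p = 0.912). The acetyltransferase *CREBBP* was 1.57 times higher in 6AN, with mean FPKM of 18.1 and 28.3, and *NCOA1* 1.26 times higher, both at all 12 times. The coactivator *NCOA2* was lower at all 12 times, at 0.904 times control, and *NRIP1* and *MED1* at 10 of 12. Over the list, 4 of 9 genes were higher at all 12 times, against 12.6% of loci, and 1 was lower, against 19.8%, with a median log2 ratio of 0.10. *NR3C2*, the mineralocorticoid receptor, which reads the same element, was low, with a mean FPKM of 1.86 in control and 2.09 in 6AN. *PGR*, the progesterone receptor, did not pass the filter.

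Of the enzymes that make and break active glucocorticoid, *HSD11B1* and *HSD11B2* did not pass the filter. *H6PD*, which supplies NADPH to HSD11B1 inside the endoplasmic reticulum, rose in control by 0.46 ± 0.07 (SE) log2 per day (limma, adjusted p = 0.00785). In 6AN its trend was 0.06 ± 0.05 (adjusted p = 0.488), and the slopes differed (-0.40 ± 0.09, adjusted p = 0.0102). Its mean FPKM was 7.57 in control and 8.02 in 6AN.

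Among 26 other genes known to be induced by glucocorticoids, 21 passed the filter. In control 4 rose, where 2.3% of all tested loci rose, and none fell, where 2.56% fell. In 6AN 1 rose, against 10.2% of loci, and 5 fell, against 12.3%. *PDK4*, which blocks pyruvate dehydrogenase, rose in control by 0.67 ± 0.09 (SE) log2 per day (limma, adjusted p = 0.00403), while its trend in 6AN was 0.06 ± 0.05 (0.416), and the slopes differed (-0.61 ± 0.10, adjusted p = 0.00122). *ERRFI1*, an inhibitor of EGF receptor signaling, rose in control by 0.35 ± 0.03 (adjusted p = 7.05e-04). *DDIT4*, an inhibitor of mTORC1, rose in control by 0.61 ± 0.10 (adjusted p = 0.00946) and in 6AN by 0.73 ± 0.12 (0.00321). *ANXA1*, an anti-inflammatory annexin, fell in 6AN by 0.30 (SE 0.06, adjusted p = 0.00856), and its trend in control was -0.16 ± 0.06 (0.172). Its mean FPKM was 159 in control and 87.4 in 6AN, lower in 6AN at all 12 times.

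The metallothioneins *MT2A* and *MT1X*, which bind metal ions, fell in 6AN by 0.49 (SE 0.07, limma adjusted p = 0.00217) and 0.40 (SE 0.08, 0.00723) on the log2 scale per day. In control the *MT2A* trend was -0.22 (limma, adjusted p = 0.152) and that of *MT1X* was near 0. The slopes in 6AN minus those in control were -0.27 and -0.40 and missed the threshold (limma, adjusted p = 0.151 and 0.185). The mean FPKM of *MT2A* and *MT1X* was nevertheless higher in 6AN at all 12 times, by 2.10 and 1.86 times. *PER1* was 2.05 times higher in 6AN, also at all 12 times, with a mean FPKM of 15.3 in control and 31.4 in 6AN. Over the list, 5 of 21 genes were at least 1.5 times higher in 6AN, against 7.21% of all tested loci, and 3 were that much lower, against 11.8%. The median log2 ratio was -0.02. The 5 included *KLF15*, with mean FPKM of 0.472 in control and 1.36 in 6AN, and the 3 included *ANGPTL4*, at 0.978 and 0.597. Each was under 0.7 in the condition where it was lower, so it passed the filter through the other condition.

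Of 8 genes known to be repressed by glucocorticoids, 6 passed the filter, and they did not move one way. In 6AN 3 of the 6 were at least 1.5 times lower, against 11.8% of all tested loci, and 2 were that much higher, against 7.21%. The list's median log2 ratio of 6AN to control was -0.64, against -0.05 over all loci. That median rests in part on *PTGS2*, with mean FPKM of 0.838 in control and 0.565 in 6AN. *PTGS2* was under 0.7 in 6AN and passed the filter through control, so the median is a description only. The chemokine *CCL2* was far lower in 6AN, with mean FPKM of 58.6 in control and 8.71 in 6AN, a ratio of 0.149. The cytokine *LIF* was also lower, at 27.4 and 13.1. The collagenase *MMP1* was 8.47 times higher, at 0.840 and 7.12. With time, *LIF* fell in control by 0.47 on the log2 scale per day (SE 0.06, limma adjusted p = 0.00348), where 2.56% of loci fell. *CCL2* fell in 6AN by 0.51 (SE 0.15, limma adjusted p = 0.0373), where 12.3% of loci fell. In control the *CCL2* trend was -0.10 (limma, adjusted p = 0.723), and the difference of the slopes missed the threshold (-0.42, adjusted p = 0.225).

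**Figure D4:**
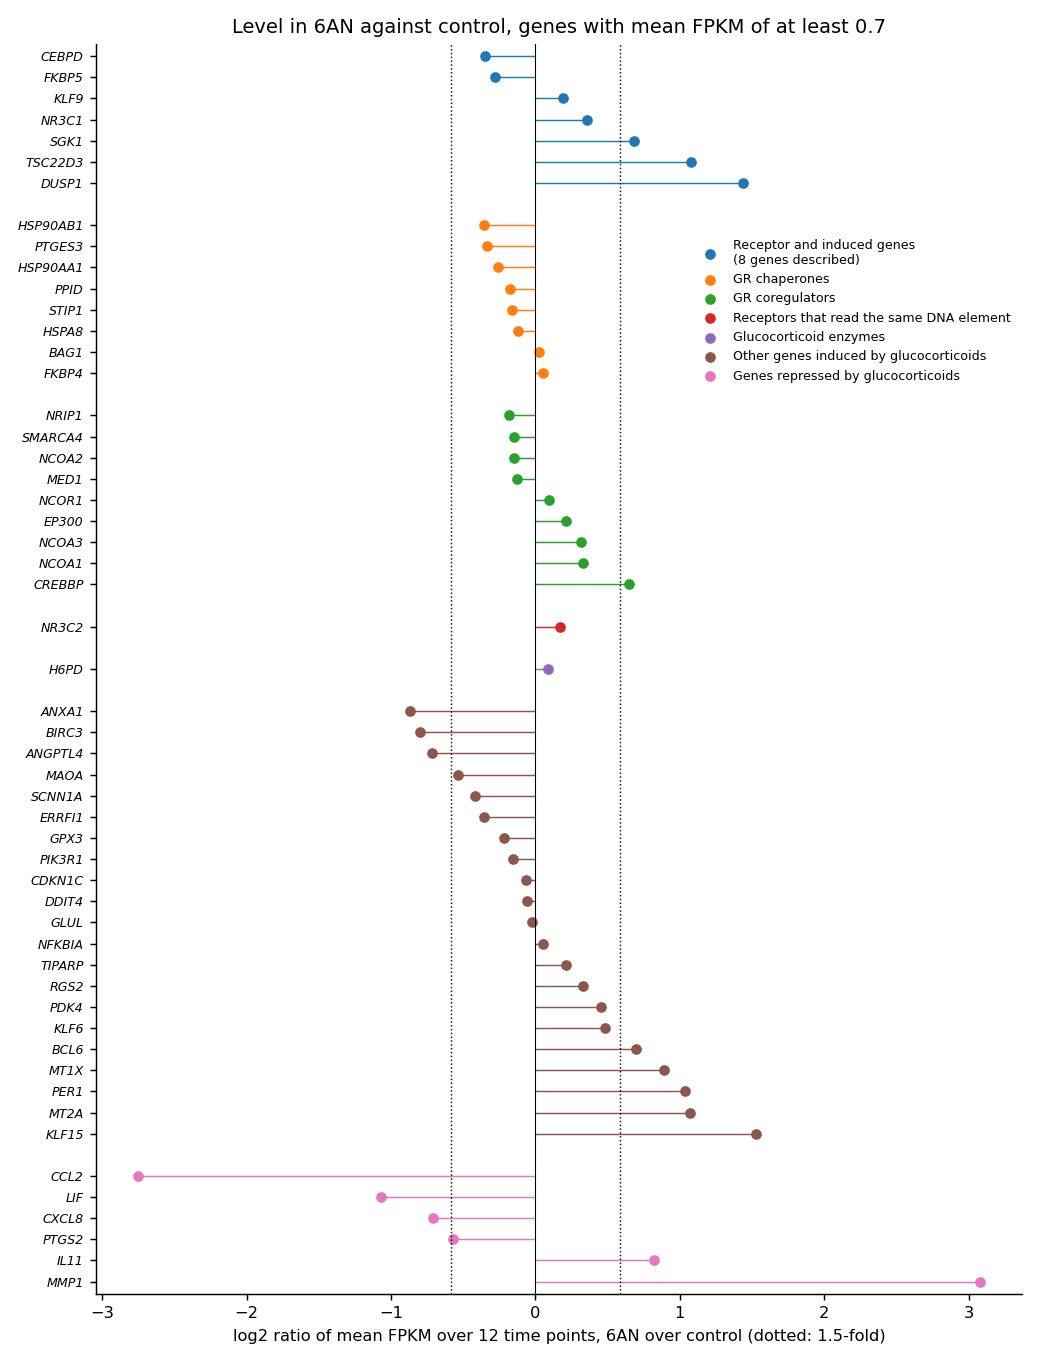
The log2 ratio of mean FPKM over 12 time points, 6AN over control (horizontal axis), for each gene with a mean FPKM of at least 0.7 (vertical axis), colored by list, with dotted lines at 1.5-fold. *MMP1* and *CCL2* lie farthest from 0, and among the receptor and its 7 targets *DUSP1*, *TSC22D3*, and *SGK1* lie beyond the dotted line.

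BMAL1 and CLOCK were measured by ChIP-seq in 1 library per condition, so binding near the genes is described without a test. At least 1 peak interval of either factor lay within 100 kb of 4 of the 8 genes, *FKBP5*, *TSC22D3*, *KLF9*, and *ZBTB16*, and so it did for 56.4% of tested loci. No interval lay that close to *NR3C1*, *SGK1*, *DUSP1*, or *CEBPD*. Signal is given in tags per 10000000 in a 1000 bp window on hg38, with the tags behind each value to the nearest 0.5, since the BMAL1 and CLOCK libraries were small, at 4078867 to 7896480 tags.

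At *FKBP5*, a site shared by both factors in 6AN lay in an intron, 484 bp from a start site (chr6:35727599-35728599), and reached into the window shown for the upstream start. Its CLOCK signal was 12.3 in control (5 tags) and 46.2 in 6AN (21 tags). BMAL1 was 28.8 in control (21.5 tags) and 48.8 in 6AN (38.5 tags). The input DNA was 18.5 (61.5 tags) and 26.9 (26 tags), so the CLOCK signal in control did not exceed the input. A second interval, called for CLOCK in 6AN alone (chr6:35688927-35689127), fell inside the window of the downstream start, a few bases from the E-box printed above. Another, chr6:35731485-35731685, was called for BMAL1 in control alone. Across the 439 sites shared in 6AN, CLOCK signal was at least 1.5 times higher in 6AN at 81.8% and BMAL1 at 40.5%. These sites, with those at *FKBP5* and *KLF9*, were picked because peaks were called there in the same 6AN libraries. That choice favors a higher signal in 6AN, so these shares are a description only.

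At *KLF9*, a site shared in 6AN stood at -5511 bp from the start, upstream of the gene (chr9:70419668-70420668). BMAL1 signal there was 20.8 in control (15.5 tags) and 51.3 in 6AN (40.5 tags), and CLOCK was 31.9 (13 tags) and 47.2 (21.5 tags). The input was 7.66 (25.5 tags) and 12.4 (12 tags). H3K9ac, a mark of active promoters, was 270 in control (38 tags) and 331 in 6AN (155.5 tags) at this site. It was 153 (21.5 tags) and 154 (72.5 tags) at the *FKBP5* site, and 35.5 (5 tags) and 21.3 (10 tags) at the *TSC22D3* site described next. The H3K9ac library of control held 1409550.5 tags, fewer than any BMAL1 or CLOCK library, and 1 tag there equals a signal of 7.09. With tags this few in control, the direction of H3K9ac at these sites cannot be told.

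Near *TSC22D3* the same intergenic site was shared by BMAL1 and CLOCK in both conditions (chrX:107676422-107677422 in 6AN), 39559 bp from the start. CLOCK was 33.1 in control (13.5 tags) and 60.4 in 6AN (27.5 tags), while BMAL1 was 22.1 (16.5 tags) and 24.1 (19 tags). The input was 4.06 (13.5 tags) and 6.22 (6 tags). *ZBTB16* had 4 intervals within 100 kb. 3 were called for BMAL1 in 1 condition alone, and the other (chr11:114294886-114295259), 44.4 kb outside the gene, was called for BMAL1 in both conditions and for CLOCK in 6AN. None of the sites listed as shared had its center within 100 kb of *ZBTB16*. The input signal was higher in 6AN at all 3 sites, by 1.43 to 1.55 times after adding 1, and tags this few leave wide counting error. On the same scale, CLOCK at *KLF9* (1.47 times) and BMAL1 at *TSC22D3* (1.08 times) rose less than the input of their site (1.55 and 1.43). The other ratios of BMAL1 and CLOCK at the 3 sites exceeded that of the input.

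**Figure D5:**
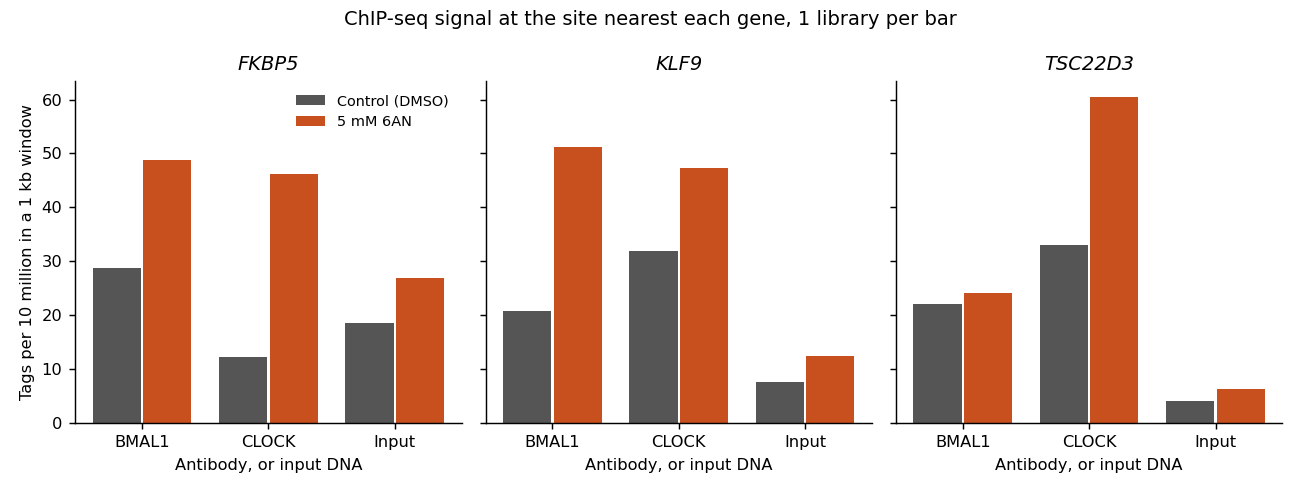
ChIP-seq signal in tags per 10000000 in a 1 kb window (vertical axis, from 0) for BMAL1, CLOCK, and input DNA (horizontal axis) at the site shared in 6AN near *FKBP5*, *KLF9*, and *TSC22D3*, control in gray and 6AN in orange, 1 library per bar and no error bars. CLOCK is higher in 6AN at all 3 sites, as is the input, whose ratio at *KLF9* exceeds that of CLOCK. The sites were picked from peaks called in 6AN, which favors a higher 6AN signal. That of *TSC22D3* alone was also listed as shared in control.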

How the data were processed

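RNA was sequenced from 24 libraries (12 time points in control and in 6AN) and chromatin from 10. For RNA-seq, the authors deposited FPKM per locus, made with TopHat, Bowtie, and Cufflinks on hg38, in one table per condition, each normalized across its own libraries, so levels were not tested between tables. For ChIP-seq, the authors deposited HOMER signal at shared sites (tags in 1000 bp scaled to 10000000) and a peak score per merged interval, which was not used for any value. Tool versions are not given in the sources used here.

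Time trend and 24 hr rhythm were fitted to log2(FPKM + 1) with limma 3.58.1 in R 4.3.3 (intercept, time, and 24 hr cosine and sine) over 14678 loci with a mean FPKM of at least 0.7. Calls used Benjamini-Hochberg adjusted p over all loci at 0.05. Depth in reads is not given, so precision was read from the residuals, and the fits were tested on simulated data, in which the tests recovered few of the changed loci, fewest for the slope difference. Other values used Python 3.11.15, NumPy 2.4.6, and pandas 2.3.3. The members and lists were chosen with earlier results of these data known, and some genes of the lists are not reported here. Named genes were the 8 members and, per list, up to 6 genes past the adjusted threshold plus the 3 with the largest difference between conditions, and likeness named 3 loci per member. A few other list genes are named to give a limit or the other direction within a list. Alternatives were another pseudocount, other filters, library scaling, another variance prior, other time terms, and leaving out each time label. Promoter sequences came from RefSeq (GRCh38.p14).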

Additional observations from a re-analysis of the deposited data

Results flagged for a closer look

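The time trend differed between 6AN and control, by the interaction term in limma (adjusted p of at most 0.05 over 14678 loci), for 9 of 53 list genes past the filter and for none of the 7 tested members. It was lower in 6AN for 8 of the 9 and higher for 1, where 4.24% of all tested loci were lower and 2.89% higher. The slope in 6AN minus that in control, in log2(FPKM + 1) per day, was -0.61 for *PDK4*, -0.67 for *COL1A1*, -0.46 for *SPARC*, -0.27 for *SMARCA4*, -0.40 for *H6PD*, -0.57 for *MMP1*, 0.33 for *LIF*, and -0.32 for *ERRFI1*. For *GLUL*, glutamine synthetase, which was outside the naming rule and is named after its value was seen, it was -0.28 (limma, adjusted p = 0.0261). The calls of *PDK4*, *COL1A1*, *SPARC*, and *SMARCA4* held in 20 of 20 alternatives, that of *ERRFI1* in 7 of 20, and that of *LIF* in 10 of 20.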

How the results depend on the processing

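Leaving out 1 time label at a time, the number of loci called for a trend ran from 397 to 649 in control (main count 714), from 2110 to 3261 in 6AN (3305), and from 666 to 1005 for the difference of trends (1047). The counts that moved by more than 1.5 times were those in control without 0 hr (416), 12 hr (397), or 44 hr (450), in 6AN without 0 hr (2110), and of the difference without 0 hr (682) or 28 hr (666). Loci called rhythmic ran from 0 to 1 in control (main count 1) and from 0 to 1 in 6AN (0). Comparing the second cycle with the first in place of a linear trend gave 382 loci in control. A period of 28 hr, or no trend term, gave 0 rhythmic loci in control. The count of members at least 1.5 times away from control in 6AN was 3 without each time label in turn. It stayed within 1.5 times of 3 in all 17 alternatives, a rule that the loss of a single member does not break. *SGK1* was lost in the second cycle alone (ratio 1.44) and in the alternative with a 2-fold limit (ratio 1.61).

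Among the member trends, the *SGK1* fall in 6AN kept its call in all 19 alternatives and *DUSP1* in 18. The *KLF9*, *CEBPD*, and *TSC22D3* calls were lost in more than 9 of 19 alternatives each, with their direction kept, and the causes were not tested. Of the list genes, the trend calls in 6AN held in 9 of 19 alternatives for *CCL2*, 11 for *NCOA3*, and 12 for *BAG1*. The mean FPKM of *MMP1* in 6AN was 13.1 times that in control in the first cycle and 5.97 times in the second. Of the member trends without a call, those of *NR3C1* and *FKBP5* in both conditions and of *DUSP1* in control changed sign in some alternatives. Those of *TSC22D3* and *SGK1* in control and of *KLF9* in 6AN kept their sign in all. No paired analysis by replicate number was possible because the labels carry none. With the time label as a block, 1183 loci were called for the difference of trends. With 1 library per point, no value has a replicate of its own time.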
